A study of Mus musculus with 18 samples.

Results

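The genes described here are 10 secreted messengers that the islet preparation itself transcribed: the colony stimulating factors Csf1, Csf2 and Csf3, and the cytokines Il6, Lif, Il1a, Il1b, Il1f6, Tnf and Il15. They are the rows of the deposited count table with these symbols, 10 of 55536 genes, and all 10 passed the low-count filter that left 17590 genes to test. RNA was sequenced from pancreatic islets of male mice, 17 weeks old, of the strain NOD.CB17-Prkdcscid/NCrCrl, which carries the scid mutation of Prkdc in every group. This strain is known for its lack of mature T and B cells. In 1 library T cell marker transcripts were higher than in the rest (untreated KO replicate 3, with a sum of 24.5 CPM against 3.6 to 5.71 in the other 17). Lck and Cd4 hold most reads of that list (1667 and 935 over the 18 libraries). The mice were ZNT8 +/+ (WT), ZNT8 +/- (Het) or ZNT8 -/- (KO). ZnT8, the product of Slc30a8, moves zinc into insulin granules. After a night in RPMI1640, islets of each genotype stayed in that medium or were kept for 24 h with IFN-γ at 10 pg/ml, TNF-α at 100 pg/ml and IL-1β at 150 pg/ml, which gives 6 groups of 3 libraries. Whether each library of a group stands for its own mouse is not in the labels, and the p-values therefore describe the spread among these samples, which may be technical. The added TNF-α and IL-1β were proteins, so reads of Tnf and Il1b come from transcripts of the preparation.

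Colony stimulating factors direct the production and survival of myeloid cells: Csf1 (M-CSF) acts on macrophages, Csf3 (G-CSF) on neutrophils and Csf2 (GM-CSF) on both and on dendritic cells. Il6 and Lif signal through receptors that share gp130, Il1a and Il1b through the IL-1 receptor, Il1f6 (IL-36α) through the IL-36 receptor, Tnf through the TNF receptors and Il15 through a receptor that holds the common gamma chain. Many of these genes are known targets of NF-κB, and several of their transcripts carry AU-rich elements, which bind proteins that speed mRNA decay. Islets hold endocrine cells together with endothelial, stellate and resident immune cells, and bulk RNA does not say which of them made a transcript. A lower level in bulk RNA can mean fewer cells of a type or less RNA per cell, and these cannot be told apart.

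With cytokines, all 10 genes rose in WT islets, 8 rose in Het islets and 7 in KO islets, and none fell. Csf3 went from 0.655 ± 0.199 to 72.1 ± 3 CPM in WT islets (mean ± SD, n = 3; CPM is counts per 1e+06 reads of the library, scaled by TMM). Il6 went from 14.2 ± 4.95 to 162 ± 66.8 CPM and Lif from 50.2 ± 7.24 to 146 ± 37.9 CPM. Among all genes tested, edgeR's quasi-likelihood test called 12.6%, 12.8% and 15.4% higher in WT, Het and KO islets and 13.1%, 11.8% and 16.1% lower (adjusted p under 0.05, Benjamini-Hochberg over all genes tested). The median log2 change of the 10 genes was 2.41, 2.18 and 2.21, beside -0.01, -0.03 and -0.03 for all genes tested. The 10 genes, and the lists of other genes below, were chosen with earlier results of these data known. Counts and medians set beside all genes therefore describe these lists and do not test them. Csf2 and Il1f6 passed the low-count filter through their treated groups. Treated and untreated libraries did not overlap for 10, 8 and 8 of the genes, all higher, where 23.1%, 17.7% and 20.1% of all genes tested were higher without overlap. Csf1 and Il15 were not called in Het or KO islets, and Il1a not in KO islets. Between genotypes none of the 10 was called in any of 6 comparisons, and none of 3 interactions was called either.

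**Figure D1:**
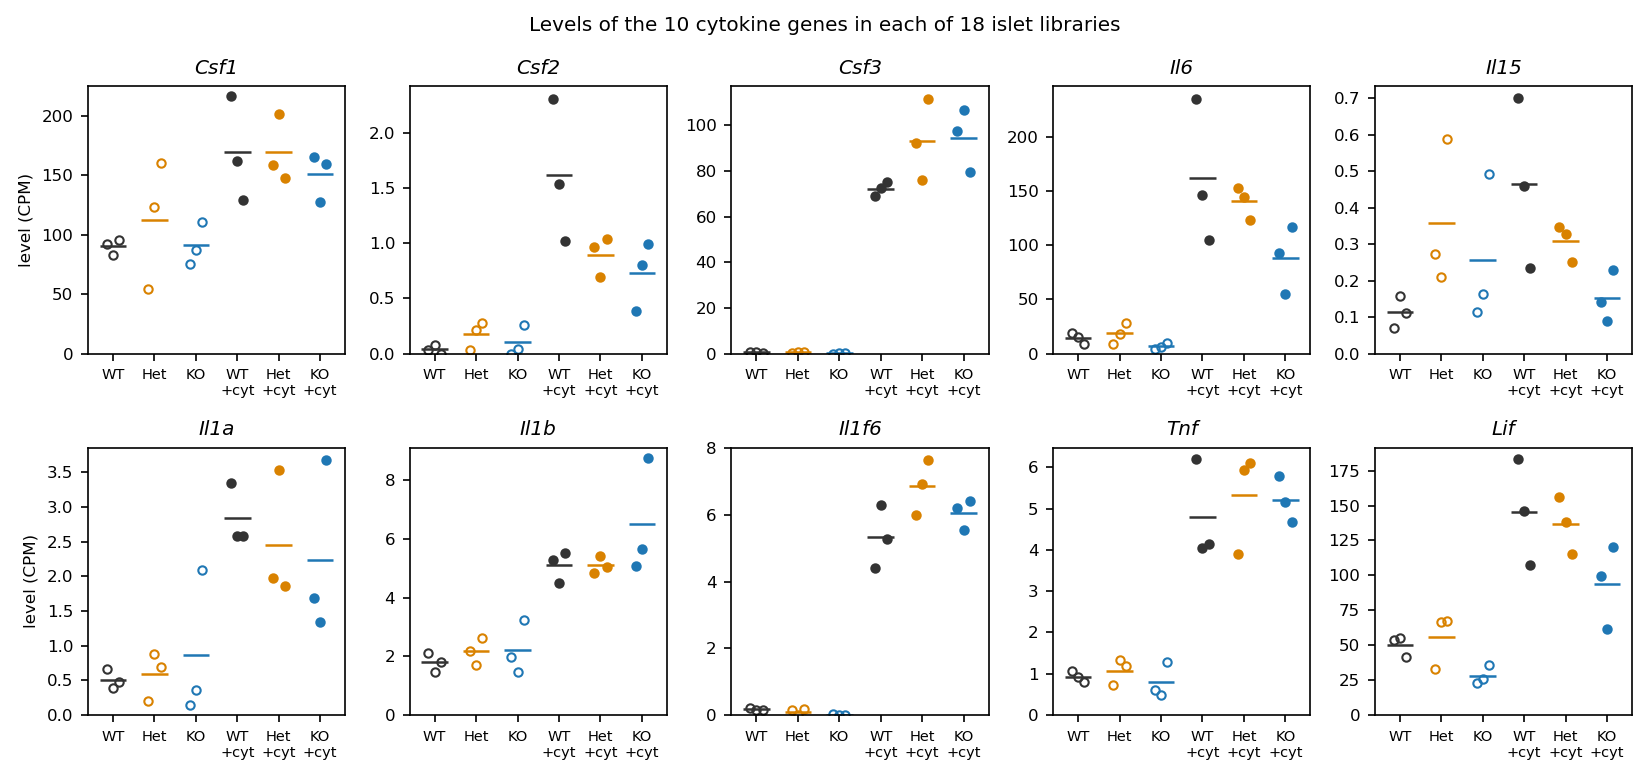
Level of each of the 10 genes in CPM (vertical axes, from 0, on a scale of its own in each panel) in the 18 libraries, by genotype without (open points) and with cytokines (filled points, "+cyt"); bars are group means. Csf3 and Il1f6 lie near 0 in every untreated library and at 69 to 112 and 4.42 to 7.64 CPM with cytokines, while Il15 overlaps between treatments in Het and KO islets.

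Libraries held 22990164 to 29946680 reads assigned to genes. Slc30a8, read as a check of the labels, stood at 98.8 to 125 CPM in untreated WT, 95.7 to 126 in untreated Het and 43.9 to 55.8 in untreated KO islets. The KO level was below WT at -1.23 ± 0.18 on the log2 scale (± SE, edgeR adjusted p = 0.00269), and the Het level stood at -0.06 ± 0.18 from WT (adjusted p = 0.962). With cytokines Slc30a8 fell in each genotype, to 34.4 to 46.4 CPM in WT, 32.1 to 56.6 in Het and 20 to 23.2 in KO islets. The treated KO level was below WT at -0.96 ± 0.19 (edgeR adjusted p = 0.0104), a call lost without treated WT replicate 2 (0.0508). Slc30a8 thus does not tell Het from WT labels. Beta cell markers summed to between 144000 and 233000 CPM in the 18 libraries, so the tissue label held. Untreated KO replicate 3 stood apart: besides the T cell sum, of 6 markers, it had 41 reads of Cd3e where the others had 1 to 7. Its macrophage sum was 444 CPM, against 172 and 185 in the other untreated KO libraries, and its stellate and fibroblast sum 3280, against 1390 and 1270. Untreated Het replicate 1 had a macrophage sum of 152 CPM, against 310 and 339 in its group, and the lowest library weight of the limma fit (0.231). The neutrophil marker Ly6g had 0 or 1 read in each library. Where leaving out 1 or both of these 2 libraries ended or gained a call of the 10 genes or moved a called change by over 1.5-fold, the value without them stands beside the result.

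Promoter sequence is shown first for the genes with high levels and a motif match, Il6, Csf1 and Lif. RefSeq promoter windows (GRCm38.p6) were found for 7 of the 10 genes: Csf1, Csf2, Il6, Lif, Il1a, Il1b and Tnf. The 250 bases before each start were searched on both strands for a κB motif, GGG, any 2 bases and TTTCC, a C/EBP motif, spelled TTNNGCAA, and an AP-1 motif, spelled TGANTCA. Among 32851 windows of the same length, 1.41%, 9.56% and 6.75% hold them. Capitals mark the matches in the strand of the gene.
Il6, chr5:30012864-30013113, plus strand: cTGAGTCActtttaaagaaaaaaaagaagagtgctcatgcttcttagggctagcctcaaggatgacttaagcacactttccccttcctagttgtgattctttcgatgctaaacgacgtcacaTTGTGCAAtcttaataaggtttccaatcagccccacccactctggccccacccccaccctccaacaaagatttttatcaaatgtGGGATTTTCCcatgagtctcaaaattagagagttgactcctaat
Csf1, chr3:107760470-107760719, minus strand: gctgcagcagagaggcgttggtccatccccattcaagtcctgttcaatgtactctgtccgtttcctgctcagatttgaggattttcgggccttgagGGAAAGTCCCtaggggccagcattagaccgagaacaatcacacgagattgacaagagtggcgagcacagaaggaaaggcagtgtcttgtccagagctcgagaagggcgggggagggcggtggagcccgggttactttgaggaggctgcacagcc
Lif, chr11:4257318-4257567, plus strand: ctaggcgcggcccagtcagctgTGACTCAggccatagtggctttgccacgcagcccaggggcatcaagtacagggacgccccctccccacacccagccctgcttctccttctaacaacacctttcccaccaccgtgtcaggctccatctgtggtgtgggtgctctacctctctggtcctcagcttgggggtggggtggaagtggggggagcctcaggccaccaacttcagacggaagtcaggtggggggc
The Il6 window holds all 3 motifs, with the κB match at 44 to 35 bases before the start. Csf1 has 1 κB match, at 154 to 145 bases before the start, and Lif 1 AP-1 match. Of the other windows, Csf2 holds a C/EBP and Il1a an AP-1 match, and the letters of the 3 motifs are not in those of Il1b and Tnf. The RefSeq window of Csf2 (chr11:54249900-54250149, minus strand) does not adjoin the gene span given below, whose start is at 54249667. The bases between them were not searched. A match is a description of the letters, and no binding was measured.

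The 3′ UTRs of the same genes were read for AU-rich elements, since some of these transcripts are textbook examples of them. The nonamer TTATTTATT occurs 5 times in the 3′ UTR of Tnf, 4 times in Csf2 and 2 times in Lif, and not in the other 7 genes; overlapping copies are counted. Among 14651 tested genes with an annotated 3′ UTR (GENCODE M21, GRCm38), 7.2% hold at least 1 copy and 1.54% at least 2. The densest stretch of each of the 3 genes is shown, in DNA letters of the gene's strand, with nonamers in capitals.
Csf2, chr11:54247329-54247358, minus strand: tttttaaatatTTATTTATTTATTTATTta
Tnf, chr17:35199679-35199708, minus strand: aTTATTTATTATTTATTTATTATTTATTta
Lif, chr11:4272033-4272062, plus strand: agaagcaaaggggcctTTATTTATTattta
The shorter pentamer ATTTA stands at 28.4 per kb of 3′ UTR in Csf2, 14.1 in Il6, 10.5 in Tnf, 8.97 in Csf3, 8.71 in Il1b and 8.33 in Il1f6. It is sparser in Il15 (3.61), Il1a (2.72), Lif (2.2) and Csf1 (1.89), and the median of the tested genes is 1.2.

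Csf3 (ENSMUSG00000038067; GRCm38 chromosome 11, 98701263 to 98703629, plus strand) encodes the growth factor of neutrophils. Untreated WT libraries held 0.692, 0.834 and 0.44 CPM, Het 0.307, 0.489 and 0.692, and KO 0, 0.203 and 0.426 (0, 5 and 13 reads). With cytokines the levels were 69, 72.3 and 74.9 CPM in WT, 92.1, 75.8 and 112 in Het islets and 97.5, 107 and 79.4 in KO islets. Every treated library lay far above every untreated one, and all Het and KO libraries with cytokines lay above all 3 WT libraries. The 0 reads of KO replicate 1 allow up to 0.109 CPM (3 reads; counting error only). The log2 change was 6.78 ± 0.29 in WT, 7.54 ± 0.29 in Het and 8.72 ± 0.33 in KO islets (edgeR adjusted p = 8.36e-10, 1.52e-10 and 9.9e-11). Reads pooled over the group rose 111-fold in WT (95% counting interval 84.5 to 148), 188-fold in Het (140 to 261) and 426-fold in KO islets (269 to 719). These intervals leave out the spread between libraries. Without untreated KO replicate 3, which holds 13 of the 18 untreated reads, the KO change was 9.84 ± 0.39 (edgeR adjusted p = 1.14e-09). The difference between the KO and WT changes was 1.94 ± 0.60, with adjusted p = 0.462 by edgeR and 0.00937 by DESeq2 (1.97). It combines a lower untreated level (KO to WT -1.55 ± 0.58, edgeR adjusted p = 0.169) with a higher treated one (0.39 ± 0.18, adjusted p = 0.207).

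Csf2 (ENSMUSG00000018916; chromosome 11, 54247271 to 54249667, minus strand) went from near 0 to about 1 CPM. Untreated libraries had 1, 2 and 0 reads in the WT group, 1, 6 and 8 in the Het group and 0, 1 and 8 in KO islets. With cytokines they had 56, 37 and 26, then 25, 19 and 29, then 11, 18 and 26 reads, or 1.62 ± 0.651, 0.898 ± 0.182 and 0.731 ± 0.312 CPM. No treated library was as low as an untreated one of its genotype, and the 8 reads of the untreated KO group's highest library come from replicate 3, which stands apart. The gene passed the low-count filter through its treated groups. Pooled reads rose 43.8-fold in WT islets (95% counting interval 14.6 to 215, from 3 untreated reads), 5.2-fold in Het (2.96 to 9.76) and 6.5-fold in KO islets (3.19 to 15). The log2 change was 5.29 ± 0.82, 2.35 ± 0.65 and 2.69 ± 0.73, and edgeR called each (adjusted p = 0.000196, 0.0157 and 0.011). The KO change was 4.90 ± 1.01 without untreated KO replicate 3 (adjusted p = 0.00205), and the WT change 6.18 ± 1.08 without untreated WT replicate 2, the library with 2 reads (0.00105). The Het call was lost without untreated Het replicate 1, the library with 1 read (1.86 ± 0.66, adjusted p = 0.0544). The Het change minus the WT change was -2.94 ± 1.2 on the log2 scale (edgeR adjusted p = 0.867), a value that rests on 3 reads in untreated WT islets. Gm12223 overlaps Csf2 on the opposite strand, and without knowledge of strand in the counting their reads cannot be told apart.

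Csf1 (ENSMUSG00000014599; chromosome 3, 107741048 to 107760469, minus strand), the macrophage growth factor, was the most abundant of the 10 in untreated islets, also per kilobase of exon (17.1 ± 1.27 CPM per kb in WT, where Lif stood at 11.5 ± 1.66 and Il6 at 5.85 ± 2.04). Untreated levels were 92, 82.6 and 95.6 CPM in WT, 54.2, 123 and 160 in Het islets and 75.2, 87.2 and 111 in KO islets. With cytokines they were 217, 162 and 129 CPM in WT, 159, 202 and 147 in Het islets and 165, 128 and 159 in KO islets. Levels were higher with cytokines without overlap in WT and KO islets, and overlapped in Het islets. The change was 0.91 ± 0.29 in WT (edgeR adjusted p = 0.0294), 0.59 ± 0.29 in Het (adjusted p = 0.154) and 0.73 ± 0.29 in KO islets (adjusted p = 0.0667). The WT call was lost without any 1 of 5 of its 6 libraries (adjusted p from 0.054 to 0.136), and stood only without cytokine-treated replicate 3. The Het change was called without untreated Het replicate 3 (0.93 ± 0.29, adjusted p = 0.0304) and stood at 0.26 ± 0.21 without untreated Het replicate 1 (0.419). The KO change was called without untreated Het replicate 1 (0.73 ± 0.19, adjusted p = 0.00729) or 3 (adjusted p = 0.0401), and by DESeq2 (adjusted p = 0.0444) and limma (0.00192).

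Il6 (ENSMUSG00000025746; chromosome 5, 30013114 to 30019981, plus strand) and Lif (ENSMUSG00000034394; chromosome 11, 4257557 to 4272514, plus strand) encode the gp130 cytokines of the list. Untreated Il6 stood at 18.8, 14.8 and 8.98 CPM in WT, 9.24, 18.3 and 28.6 in Het islets and 4.36, 5.64 and 9.76 in KO islets. With cytokines it stood at 236, 147 and 105 in WT, 153, 145 and 123 in Het islets and 93.3, 54.6 and 117 CPM in KO islets. All treated libraries exceeded all untreated ones, and KO libraries lay low in both treatments, with overlap with WT. The log2 change was 3.51 ± 0.43, 2.91 ± 0.42 and 3.73 ± 0.45 in WT, Het and KO islets (edgeR adjusted p = 2.33e-05, 9.34e-05 and 1.27e-05). Per kilobase of exon, treated WT islets held Il6 at 66.9 ± 27.5 CPM per kb, beside 51 ± 2.12 for Csf3, 33.5 ± 8.72 for Lif and 32 ± 8.39 for Csf1. In treated Het islets Il6 stood at 57.9 ± 6.37 and Csf3 at 65.9 ± 12.7 CPM per kb, and in treated KO islets at 36.3 ± 12.9 and 66.9 ± 9.76.

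Untreated Lif stood at 53.5, 55.1 and 41.9 CPM in WT, 33.1, 66.2 and 67.3 in Het islets and 22.8, 25.9 and 35.7 in KO islets. With cytokines it stood at 183, 146 and 108 in WT, 156, 138 and 115 in Het islets and 99.6, 61.7 and 120 CPM in KO islets. The untreated KO libraries lay below all untreated WT libraries, and with cytokines KO and WT overlapped. The change was 1.54 ± 0.29, 1.3 ± 0.28 and 1.74 ± 0.29 in WT, Het and KO islets (edgeR adjusted p = 0.000916, 0.00326 and 0.000282). Il6 and Lif thus started high and rose 2.46- to 13.3-fold, where Csf3 and Il1f6 started near 0. The calls of Il6 and Lif with cytokines held in every alternative tried.

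Within the IL-1 family, Il1f6 (ENSMUSG00000026984; chromosome 2, 24215418 to 24225702, plus strand), whose product acts on epithelial and myeloid cells, also started near 0. Untreated libraries had 6, 4 and 4 reads in the WT group, 4, 0 and 5 in the Het group and 1, 0 and 0 in KO islets. With cytokines they held 4.42, 6.3 and 5.29 CPM in WT, 6, 6.92 and 7.64 in Het islets and 6.2, 5.56 and 6.41 in KO islets (107 to 214 reads). The gene had 0 to 6 reads in a library without cytokines, and treated libraries of the 3 genotypes overlapped. The libraries with 0 reads allow up to 0.101 to 0.121 CPM. Pooled reads rose 31-fold in WT (95% counting interval 18.2 to 57.2), 66.4-fold in Het (34.7 to 146) and 496-fold in KO islets (88.7 to 19700, from 1 untreated read). edgeR called all 3 (adjusted p = 1.62e-07, 2.49e-08 and 1.16e-08), and the gene passed the low-count filter through its treated groups.

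Il1b (ENSMUSG00000027398; chromosome 2, 129364570 to 129371139, minus strand), made as a precursor that caspase-1 cuts, stood at 2.11, 1.47 and 1.8 CPM in untreated WT, 2.18, 1.71 and 2.63 in Het islets and 1.97, 1.46 and 3.24 in KO islets. With cytokines it stood at 5.29, 4.5 and 5.52 in WT, 4.84, 5.43 and 5.04 in Het islets and 5.08, 5.65 and 8.75 CPM in KO islets. Treated libraries lay above untreated ones in each genotype, by 1.5 ± 0.27, 1.23 ± 0.26 and 1.53 ± 0.26 on the log2 scale (edgeR adjusted p = 0.000671, 0.00279 and 0.000336). The antisense gene Il1bos overlaps Il1b, so their reads cannot be told apart.

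Il1a (ENSMUSG00000027399; chromosome 2, 129299610 to 129309972, minus strand), whose product is active without caspase-1, had 19, 10 and 13 reads in untreated WT, 6, 25 and 20 in Het islets and 4, 9 and 64 in KO islets. With cytokines it had 81, 62 and 66 reads in the WT group, 51, 97 and 52 in the Het group and 48, 30 and 96 in KO islets. The 64 reads of untreated KO replicate 3, the library with high T cell and macrophage markers, exceed 2 of the 3 treated KO libraries. The change was 2.46 ± 0.68 in WT (edgeR adjusted p = 0.0148), 2.05 ± 0.67 in Het (0.0347) and 1.32 ± 0.64 in KO islets (0.134). Without that library the KO change was 3.11 ± 0.63 (adjusted p = 0.00171). Single libraries also decide the other calls: the WT call was lost without untreated WT replicate 2 (adjusted p = 0.0601) or 3 (0.0541). The Het call was lost without untreated Het replicate 1 (0.109) or 3 (0.0651) or treated Het replicate 1 (0.0521) or 2 (0.126). Gm14023 overlaps Il1a on the opposite strand.

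Tnf (ENSMUSG00000024401; chromosome 17, 35199381 to 35202007, minus strand) rose in each genotype. Untreated levels were 1.07, 0.913 and 0.806 CPM in WT, 0.716, 1.33 and 1.18 in Het islets and 0.606, 0.487 and 1.28 in KO islets. With cytokines they were 6.19, 4.04 and 4.15 in WT, 3.91, 5.94 and 6.11 in Het islets and 5.78, 5.16 and 4.68 CPM in KO islets. No treated library overlapped an untreated one. The change was 2.36 ± 0.31, 2.31 ± 0.30 and 2.69 ± 0.32 in WT, Het and KO islets (edgeR adjusted p = 4.8e-05, 4.17e-05 and 9.65e-06). The KO change differed from the WT change by 0.33 ± 0.44, with an interval of 2 SE from -0.56 to 1.22.

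Il15 (ENSMUSG00000031712; chromosome 8, 82331632 to 82403222, minus strand), a survival factor of NK and memory T cells, was the one member whose change pointed in different directions. It had 2, 4 and 3 reads in untreated WT, 8, 6 and 17 in Het islets and 3, 4 and 15 in KO islets. With cytokines the libraries had 17, 11 and 6 reads in the WT group, 9, 9 and 7 in the Het group and 4, 2 and 6 in KO islets. WT libraries rose without overlap, and in Het and KO islets treated and untreated libraries overlapped. The change was 2.02 ± 0.62 in WT (edgeR adjusted p = 0.0249), -0.21 ± 0.53 in Het (adjusted p = 0.819) and -0.75 ± 0.63 in KO islets (adjusted p = 0.401). Without untreated KO replicate 3, with its 15 reads, the KO value was 0.18 ± 0.69. Without untreated Het replicate 3 the Het value was 0.34 ± 0.59. The WT call was lost without untreated WT replicate 1 (adjusted p = 0.0928) or 3 (0.0708) or treated WT replicate 1 (0.122) or 2 (0.0531). The KO change minus the WT change was -2.76 ± 0.88 (edgeR adjusted p = 0.465), and the Het change minus the WT change -2.23 ± 0.82 (0.867).

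**Figure D2:**
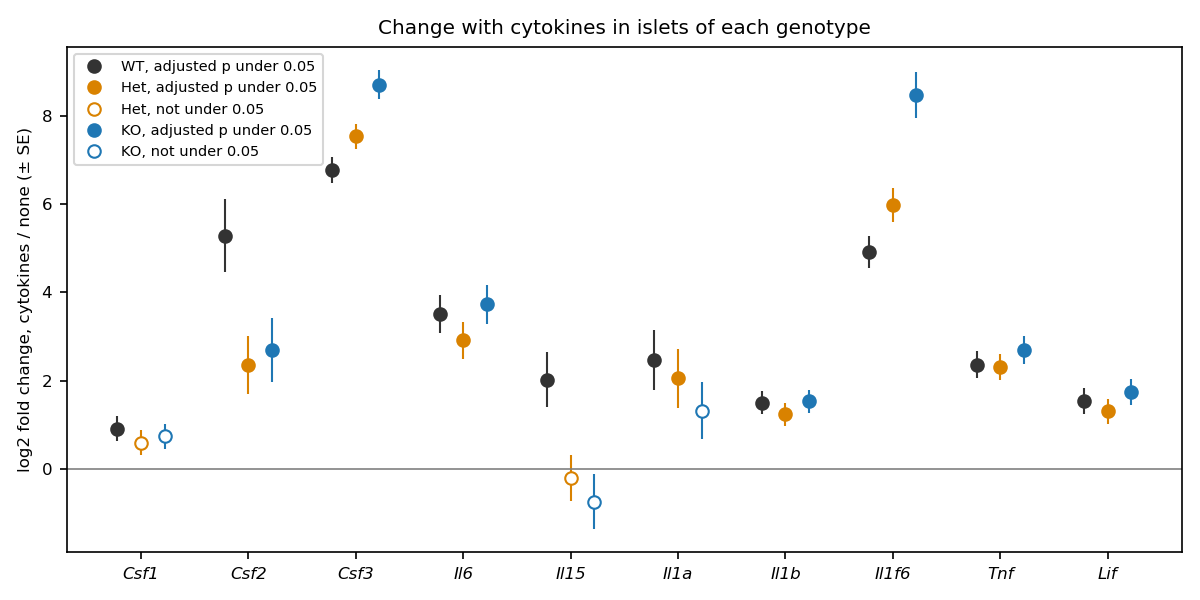
Log2 fold change with cytokines for each of the 10 genes (horizontal axis) in WT, Het and KO islets, ± SE from edgeR; filled points have an adjusted p under 0.05. Csf3 stands at 6.78 to 8.72, Csf2 is above Il1f6 in WT islets (5.29 and 4.92) and below it in Het and KO islets, and Il15 is at 2.02 in WT islets and below 0 in Het and KO islets.

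The next comparisons set genotypes against each other. Of the 10 genes 0 passed edgeR between KO and WT islets, untreated or with cytokines, where 3.04% and 5.34% of all genes tested passed. In each of these 2 comparisons 4 of the 10 had an unadjusted p under 0.05. Untreated KO and WT libraries did not overlap for 3 of the 10, Csf3, Il1f6 and Lif, where 25.7% of all genes tested did not. Untreated, DESeq2 called 1 (Csf3, -1.56, adjusted p = 0.0087), where it called 6.12% of all genes, and limma 2 (Il1f6, -2.78, adjusted p = 0.03, and Lif, -0.93, adjusted p = 0.0346), where it called 9.98%. By edgeR the untreated KO to WT differences of the 4 genes were -3.38 ± 0.88 for Il1f6 (adjusted p = 0.0507), -0.83 ± 0.29 for Lif (0.138), -1.55 ± 0.58 for Csf3 (0.169) and -1.10 ± 0.45 for Il6 (0.209). The Il1f6 value stands on 14 reads against 1, and it was called when any 1 of the 3 untreated Het libraries was left out (adjusted p from 0.0204 to 0.0424). The other 6 genes lay between -0.21 and 1.44. With both libraries that stand apart left out, Lif passed (-1.04 ± 0.26, adjusted p = 0.0292), where 7.21% of all genes did. Untreated KO replicate 3 held the highest Lif of its group (35.7 CPM), so its removal by itself lowers the KO mean. Of 14 macrophage markers 1 was called higher in untreated KO than in WT islets, and 10 had an unadjusted p under 0.05 (sums of 172 to 444 against 190 to 226 CPM). The 444 CPM is untreated KO replicate 3 alone, and the other 2 KO sums, 172 and 185, lie below all 3 WT sums. The median log2 change of the 14 markers was 0.93, with replicate 3 included. Cd14 had the most reads of the list (65089 over the 18 libraries), so the sums need not stand for the other markers. The part of macrophages in these differences was not tested.

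With cytokines, the 4 genes were Il15 (KO to WT -1.54 ± 0.59, edgeR adjusted p = 0.127), Il6 (-0.88 ± 0.38, 0.176), Lif (-0.63 ± 0.28, 0.178) and Csf2 (-1.16 ± 0.53, 0.196). KO and WT libraries did not overlap for Csf2, Il15 and Csf3, 3 of the 10, where 30.5% of all genes tested did not, and they did for Il6 and Lif. DESeq2 called 0 of the 10 here and 10.9% of all genes. Limma called 5, these 4 lower and Csf3 higher (0.41, adjusted p = 0.00822), and 23.1% of all genes. Markers of other cell types moved with this comparison. Endothelial markers summed to 338 to 516 CPM in treated WT and 149 to 259 in treated KO islets, with 6 of 8 called lower, and untreated to 397 to 529 and 212 to 324 with 2 of 8 called lower. All 8 acinar markers were called lower in KO islets in both treatments. Macrophage sums were 334 to 585 and 257 to 325 with cytokines, where 0 of 14 markers were called (1 had an unadjusted p under 0.05). Their part in the lower Il6 and Lif levels was not tested.

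Between Het and WT islets 0 of the 10 genes passed edgeR, DESeq2 or limma in either treatment, where 0.00569% of all genes tested passed edgeR untreated and 0% with cytokines. Untreated, 1 of the 10 had an unadjusted p under 0.05, Il15 at 1.64 ± 0.63 (edgeR adjusted p = 0.594), and with cytokines 0. Het and WT libraries did not overlap for 1 of the 10 untreated, Il15, where 10.7% of all genes did not. With cytokines they did not for 1, Csf3 (0.37 ± 0.18, adjusted p = 0.715), where 15.9% of all genes did not. KO against Het islets gave 0 calls by edgeR untreated, where 0.00569% of all genes passed, and 3 unadjusted p under 0.05: Il6 (-1.49 ± 0.45, adjusted p = 0.171), Lif (-0.98 ± 0.29, 0.169) and Il1f6 (-2.68 ± 0.96, 0.23). DESeq2 called Il6 and Lif, and 2.38% of all genes, and limma called Lif, and 13% of all genes. Untreated KO and Het libraries did not overlap for 0 of the 10, where 11.4% of all genes did not. This comparison holds both libraries that stand apart. Without untreated Het replicate 1 alone, Il6 was at -1.81 ± 0.43 (edgeR adjusted p = 0.0179) and Lif at -1.24 ± 0.26 (0.0115), with 10.7% of all genes called. Without both, 5 genes were lower in KO islets: Lif (-1.46), Il6 (-2.23), Csf1 (-0.8), Tnf (-1.18) and Csf3 (-2.54), with adjusted p from 0.00531 to 0.0489, and 17.9% of all genes were called. Leaving out both was chosen after the data were seen. Untreated Het replicate 1 was the lowest of its group for 7 of the 10 genes, and untreated KO replicate 3 the highest for 9. Their removal by itself moves most of these genes toward lower KO values, so the calls are no independent support. With cytokines KO against Het gave 0 calls by edgeR, DESeq2 and limma (0% of all genes by edgeR) and 0 unadjusted p under 0.05. Libraries did not overlap for 2 of the 10, Il6 and Il15, where 14.2% of all genes did not.

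**Figure D3:**
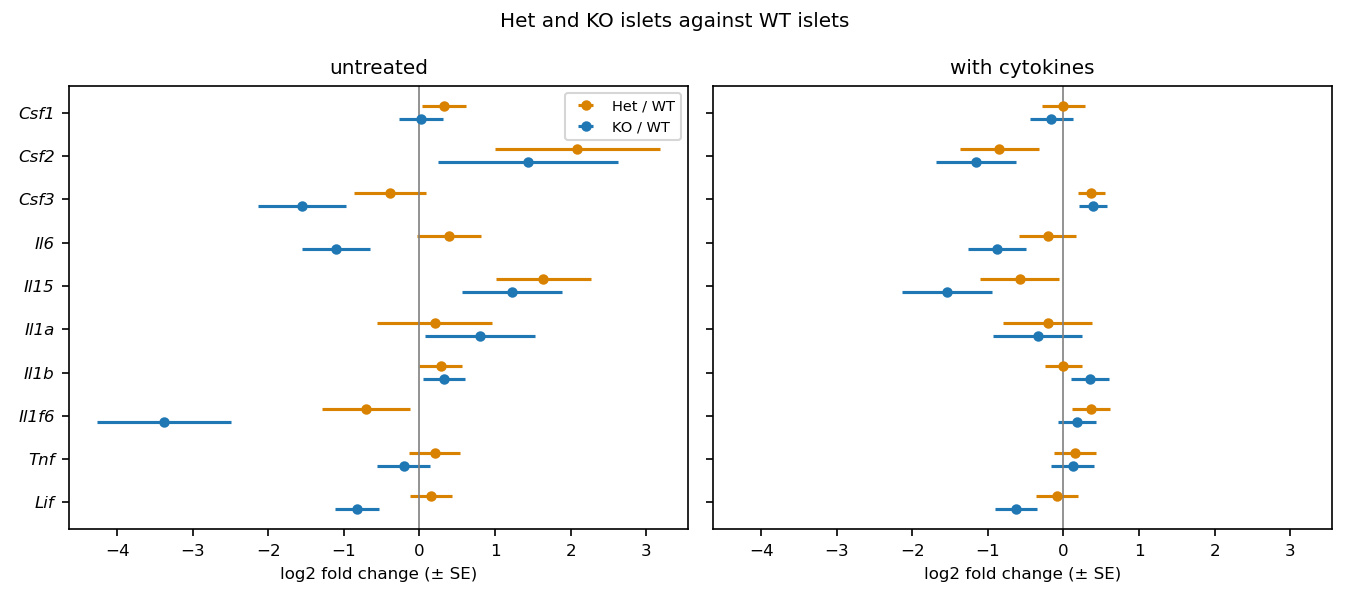
Log2 fold change of Het (orange) and KO islets (blue) against WT islets for each gene, untreated (left) and with cytokines (right), ± SE from edgeR on the same horizontal scale. In untreated KO islets Il1f6 (-3.38), Csf3 (-1.55), Il6 (-1.10) and Lif (-0.83) lie to the left of 0, and none of the 40 differences drawn passed the adjusted threshold.

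Tests of whether the response to cytokines differed between genotypes called 0 of the 10 by edgeR in each of 3 interactions, where 0%, 0.0114% and 0% of all genes passed for Het to WT, KO to WT and KO to Het. Unadjusted, 2, 3 and 1 of the 10 had a p under 0.05. These were Csf2 and Il15 for Het to WT, Csf3, Il15 and Il1f6 (3.57 ± 0.92, edgeR adjusted p = 0.323) for KO to WT, and Il1f6 (2.5 ± 1.00, 0.82) for KO to Het. DESeq2 called Csf3 for KO to WT, where it called 0.365% of all genes, and 0 in the others, and limma called 0. The intervals of the changes that did not pass are wide: for Il6 the KO to WT difference in response was 0.22, with 2 SE from -0.97 to 1.40, and for Lif 0.20, from -0.60 to 1.00.

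Libraries of the same group differed from each other in a shared way for part of the list. In each of 6 groups the library lowest in Il6 was also the lowest in Lif, and in 5 of 6 the highest in Il6 was the highest in Lif. The lowest library in Csf1 was also the lowest in Il6 and Lif in 5 of 6 groups. Il1a shared its lowest library with Csf1 in 6 of 6 groups and with Il6 and Lif in 5 of 6. It shared its highest with Csf1, Il6 and Lif in 3, 4 and 3 of 6. Il15, with few reads, shared its highest library with Lif in 6 of 6 groups and its lowest in 4 of 6. The library lowest in Il6 or in Lif had the lowest endothelial and the lowest macrophage sum in 6 of 6 groups. It had the lowest neutrophil sum in 5 of 6, the lowest stellate and T cell sums in 3 of 6, the lowest duct and acinar sums in 2 of 6 and the lowest NK cell sum in 1 of 6. The library highest in beta cell markers was highest in Il6 or Lif in 0 of 6 groups. Csf3 had the same highest library as Il6 in 2 of 6 groups and as the macrophage sum in 2 of 6. It had the same lowest library as Il6, Lif, the macrophage sum and the endothelial sum in 3 of 6 groups each. Untreated Het replicate 1 was the lowest of its group for 7 of the 10 genes and untreated KO replicate 3 the highest for 9 of 10. The part of cell makeup in these differences was not tested.

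**Figure D4:**
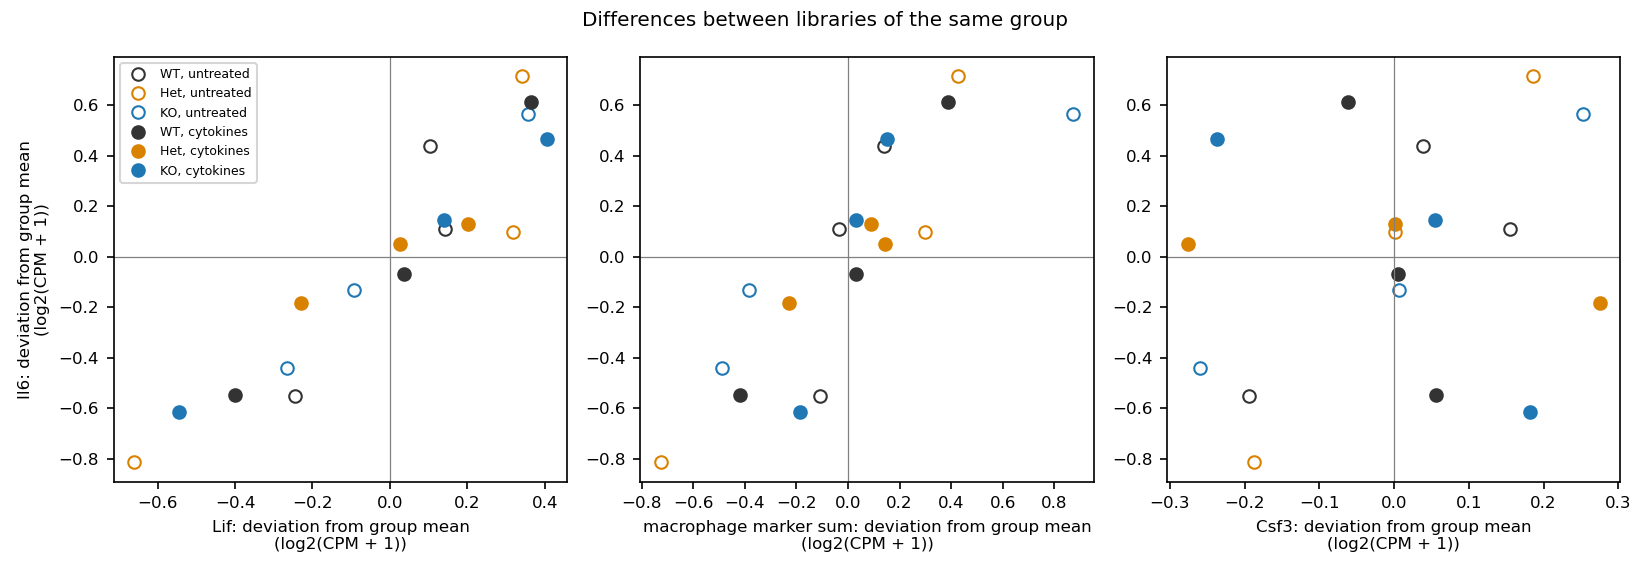
Deviation of each of 18 libraries from its group mean on the log2(CPM + 1) scale, Il6 (vertical axes) against Lif, the summed macrophage markers and Csf3 (horizontal axes); open points are untreated and filled points treated libraries. Il6 runs with Lif, sharing the lowest library in 6 of 6 groups, and with the macrophage sum. With Csf3 it shares the lowest library in 3 of 6 groups. The endothelial sum, not drawn, also shares its lowest library with Il6 in 6 of 6 groups. Cd14 has the most reads of the macrophage list.

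Immune markers were also read across the treatment itself. Macrophage markers summed to 190 to 226 CPM in untreated and 334 to 585 in treated WT islets, 152 to 339 and 328 to 425 in Het, and 172 to 444 and 257 to 325 in KO islets. Of 14 markers, 1, 0 and 1 were called higher with cytokines and none lower. The one called was Cd14, an LPS co-receptor named after its value was seen (2.24 ± 0.47 in WT, 1.24 ± 0.45 in Het and 2.06 ± 0.47 in KO islets). Cd14 also had the most reads of the macrophage list (65089), so the higher sums need not hold for the other markers. The median log2 change of the 14 markers was 0.31 (WT), -0.15 (Het) and -0.56 (KO). The pan-leukocyte gene Ptprc stood at 0.25 ± 0.42, -0.15 ± 0.42 and -0.80 ± 0.41 (edgeR adjusted p = 0.707, 0.833 and 0.157) and Adgre1 at 0.47 ± 0.33, 0.01 ± 0.32 and -0.21 ± 0.32 (0.329, 0.993 and 0.658). Neutrophil markers, from the cells that Csf3 acts on, were low. Their 8 genes summed to 0.11 to 0.173 CPM in untreated and 0.548 to 2.73 in treated WT islets, 0.102 to 0.381 and 0.964 to 3.5 in Het, and 0.122 to 1.05 and 0.807 to 1.65 in KO islets. The sums overlapped between treatments in KO islets only, through untreated KO replicate 3, which stands apart (1.05 CPM). Untreated KO replicates 1 and 2 had 0.303 and 0.122 CPM, below all treated KO sums. Camp and Mmp8 held 115 and 310 reads over the 18 libraries, and Ly6g, Mpo, Elane, Retnlg, Cxcr2 and Ngp 0 to 10 each. Of 8 markers these 2 could be tested, and they passed the low-count filter through treated libraries. In WT, Het and KO islets 2, 2 and 1 were called higher. Camp, an antimicrobial peptide of neutrophil granules, changed by 3.73 ± 0.93, 2.63 ± 0.88 and 4.76 ± 1.13 (edgeR adjusted p = 0.00763, 0.0395 and 0.00447). Mmp8, the neutrophil collagenase, stood at 4.18 ± 1.05, 3.33 ± 0.89 and 0.62 ± 0.81 (0.00807, 0.0122 and 0.606). The part of immune cells, neutrophils among them, in the rise of the 10 genes was not tested.

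Receptors and decoys of these ligands moved in both directions. Of 18 tested, 5, 4 and 4 rose and 1, 1 and 5 fell with cytokines in WT, Het and KO islets, with medians of 0.4, 0.27 and -0.09. Of all genes tested, 12.6%, 12.8% and 15.4% rose and 13.1%, 11.8% and 16.1% fell. Il1rap, the shared chain of the IL-1 and IL-36 receptors, rose by 0.57 ± 0.10, 0.69 ± 0.10 and 0.71 ± 0.10, and the TNF receptor Tnfrsf1a by 0.57 ± 0.11, 0.62 ± 0.11 and 0.77 ± 0.11. Il15ra, which presents IL-15, rose by 0.40 ± 0.10, 0.36 ± 0.10 and 0.34 ± 0.10 (edgeR adjusted p = 0.00989, 0.0172 and 0.0188). The Het and KO calls of Il15ra were lost with a fit to the compared groups alone (0.0918 and 0.0705), and the KO call with no low-count filter (0.0536). The Het call was also lost without untreated Het replicate 3 (0.0727) or treated Het replicate 2 (0.0527) or 3 (0.0734), and the KO call without untreated KO replicate 1 (0.0579) or 2 (0.0626) or treated KO replicate 1 (0.0875) or 2 (0.0556). Lifr, the LIF receptor, fell, at -0.53 ± 0.10, -0.40 ± 0.10 and -0.63 ± 0.10 (the Het call was lost with a fit to the compared groups alone, adjusted p = 0.0991). The other 4 that fell in KO islets, named after their values were seen, were Csf3r (-1.65 ± 0.43), Csf2ra (-0.32 ± 0.08), Il6ra (-0.29 ± 0.09) and Il2rb (-3.17 ± 0.99). Il2rb, a chain of the IL-15 receptor, was at -0.06 without untreated KO replicate 3 (adjusted p = 0.959). Il2rb also lost its call without treated KO replicate 1 (-3.06, adjusted p = 0.0802) or 2 (-2.9, 0.0776). The Il6ra call was lost without untreated KO replicate 1 (-0.17, adjusted p = 0.186) or 2 (0.0603) or any 1 treated KO library (from 0.0515 to 0.08). With a fit to the compared groups alone Il6ra (0.0781) and Il2rb (0.138) were not called, and limma put Il2rb at -0.86 (0.433).

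Between genotypes, Csf2ra was higher in untreated KO (22.9 ± 1.46 CPM) than in untreated WT islets (16.1 ± 0.727), by 0.50 ± 0.08 (edgeR adjusted p = 0.00463). Il6ra was higher too, at 64.4 ± 8.68 against 47.4 ± 2.56 CPM untreated (0.44 ± 0.09, adjusted p = 0.0215) and 52.6 ± 1.49 against 40.8 ± 1.12 CPM with cytokines (0.36 ± 0.10, adjusted p = 0.0383). The untreated Il6ra call was lost without untreated WT replicate 1 (adjusted p = 0.117) or 3 (0.0573) or untreated KO replicate 1 (0.0842) or 2 (0.0633). The treated one was lost in 9 of the 18 fits that left out 1 library (0.0518 to 0.131): untreated WT replicate 2 or 3, untreated KO replicate 2, any treated WT library, treated Het replicate 1 and treated KO replicate 1 or 2.

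Other ligands of the same families also rose in part. Of 40 listed 26 could be tested, and 11, 9 and 7 rose and 0, 1 and 0 fell with cytokines. The shares of all genes tested were 12.6%, 12.8% and 15.4% higher and 13.1%, 11.8% and 16.1% lower. Il17c, an epithelial cytokine, went from 0.238 ± 0.206 to 6.02 ± 0.592 CPM in WT islets (4.60 ± 0.46, 5.74 ± 0.51 and 5.76 ± 0.50 in WT, Het and KO). The death ligand Tnfsf10 (TRAIL) rose by 0.93 ± 0.15, 1.42 ± 0.15 and 1.46 ± 0.16, and Il34, the second ligand of the CSF1 receptor, by 0.85 ± 0.16, 0.78 ± 0.16 and 1.29 ± 0.17. Il1f9 (IL-36γ) was called in each genotype and stood at 0.344 ± 0.238, 0.366 ± 0.116 and 0.382 ± 0.183 CPM with cytokines, from 1 read in each untreated group, and passed the low-count filter through its treated groups. The gene that fell in Het islets was Kitl (-0.64 ± 0.21, edgeR adjusted p = 0.0352), the stem cell factor, named after its value was seen, and this call was lost without untreated Het replicate 2 or 3, treated WT replicate 2 or any 1 treated Het library (adjusted p from 0.05 to 0.12).

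Genes that process these cytokines or act on their mRNA rose for 11, 10 and 11 of 21, and none fell, where 12.6%, 12.8% and 15.4% of all genes tested rose and 13.1%, 11.8% and 16.1% fell. Zc3h12a (regnase-1), an RNase that degrades Il6 mRNA, rose from 10.7 ± 3.27 to 203 ± 6.71 CPM in WT islets (4.24 ± 0.27, 4.36 ± 0.27 and 4.85 ± 0.29 in WT, Het and KO; edgeR adjusted p = 4.44e-08, 1.96e-08 and 7.29e-09). Adam17, the protease that releases TNF from the membrane, rose by 0.42 ± 0.07, 0.40 ± 0.06 and 0.41 ± 0.07, and its partner Rhbdf2 (iRhom2) by 1.15 ± 0.14, 0.99 ± 0.14 and 1.36 ± 0.14. Gsdmd, the pore through which IL-1β leaves cells, rose by 1.19 ± 0.14, 0.82 ± 0.14 and 0.81 ± 0.14. Between untreated KO and WT islets Adam10 was lower (99.3 ± 8.51 against 135 ± 11.3 CPM, -0.44 ± 0.08, edgeR adjusted p = 0.00976), a call lost without untreated WT replicate 1 (0.0637) or untreated KO replicate 1 (0.0725). With cytokines Capn2 was lower in KO islets (-0.40 ± 0.08, adjusted p = 0.0094), a call lost without treated WT replicate 2 (0.0608) or treated KO replicate 2 (0.0541). None of the genes of the 3 lists was called in an interaction by edgeR, DESeq2 or limma.

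Across the 18 libraries, the genes with the pattern most like each member were named by the Pearson correlation of log2(CPM + 1), a description that the difference between treatments dominates. For Csf3 they were Slc11a2 (0.997), Grb2 (0.997) and Vnn3 (0.996), and for Il1f6 Slc11a2 (0.996), Tnfaip8l3 (0.996) and Chil1 (0.996). For Il6 they were Ptpn12 (0.994), Abcc1 (0.986) and Ier3 (0.986), and for Lif Ier3 (0.983), Fosl2 (0.981) and Ptgs2 (0.98). Slc11a2 thus appears for both Csf3 and Il1f6, and Ier3 for both Il6 and Lif. Tnf lay closest to Serpina3h (0.985), Il1a to Jak2 (0.972), Il1b to Tgm1 (0.973), Csf1 to Jdp2 (0.961), Csf2 to Slc26a9 (0.937) and Il15 to Gda (0.87).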

How the data were processed

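RNA-seq libraries of mouse islets, 18 in 6 groups, were analysed. Per the file headers, the values that the authors deposited are raw counts of reads for each gene, and a table of conditions with a replicate number (another kind of value that the authors deposited), used in an alternative only. FastQC 0.11.7, cutadapt 1.16, STAR 2.5.2a, featureCounts 1.6.2, DESeq2 1.30.0 and GRCm38 are named per the submitters' processing notes, without roles or order; for strandedness, nothing is given in the sources used here. Genes were kept by filterByExpr (count minimum 10; 17590 of 55536), scaled by TMM (factors 0.96 to 1.03) and fitted with edgeR 4.0.16 quasi-likelihood in R 4.3.3, with 1 mean for each of 6 groups, 12 residual degrees of freedom and 12 comparisons. The median biological coefficient of variation was 0.103. Adjusted p-values are Benjamini-Hochberg over all genes tested, with a threshold of 0.05. SE is the log2 change divided by the root of the F statistic.

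The script was tested on simulated data with known changes. Alternatives were RLE size factors, no filter, the authors' filtered gene set (25253 rows), the groups compared only, DESeq2 1.42.0, limma 3.58.1 voom with quality weights, a replicate block, robust estimation, both libraries that stand apart left out, and each library left out. Robust estimation, the block by the authors' number and leaving out both libraries were chosen after seeing the data. Intervals and floors of reads cover counting error only. The 10 genes and all lists were chosen with earlier results of these data known. Named genes are the 10 members, the check gene Slc30a8, from each of 3 related lists the 4 with the smallest p over the cytokine comparisons, defining markers, and for each member the genes most like it among those with a mean of at least 2 CPM. Promoters are from RefSeq, and 3′ UTRs from GENCODE M21. Of the other cell type lists, duct and NK cell markers are given in the closing section. Figures were drawn with matplotlib 3.10.9.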

Additional observations from a re-analysis of the deposited data

How the results depend on the processing

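The counts of members called with cytokines were 9 to 10 in WT, 8 in Het and 7 to 9 in KO islets over the other settings, and 7 to 10, 6 to 8 and 7 to 8 with 1 library left out. Over single members and Slc30a8, 1471 of 1533 values kept their direction and side of the threshold, 17 lost and 41 gained a call, and 4 changed sign. The sign changes were Il15 in Het islets, at 0.14 by limma and -0.48 to 0.34 with 1 library left out (0.34 without untreated replicate 3), and Il15 in KO islets, at -1.13 to 0.18 with 1 left out (0.18 without untreated replicate 3) and 0.18 without both libraries that stand apart. Fewer samples are part of each fit that leaves libraries out; the other causes were not tested.

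Members called between untreated KO and WT islets numbered 1 with no filter, 1 with the authors' filtered genes, 1 by DESeq2, 2 by limma, 1 with robust estimation, 1 without both libraries and 0 to 1 with 1 library left out, against 0. For KO against Het untreated they numbered 2 by DESeq2, 1 by limma, 5 without both and 0 to 2 with 1 left out, against 0. Limma called 5 for KO against WT with cytokines, and DESeq2 1 in the KO to WT interaction, against 0. The 3 related lists held 18, 26 and 21 genes tested in the main fit. Together, KO against WT untreated gave 3 genes, 5 with no filter, 6 with only the groups compared and 6 by DESeq2. It gave 8 by limma, 9 without both and 1 to 8 with 1 left out. The shares of all genes called, in the same order, were 3.04%, 1.59%, 3.52%, 6.12%, 9.98%, 7.21% and 0.775% to 5.59%. KO against Het untreated gave 0, and 5 by DESeq2, 13 by limma, 20 without both and 0 to 11 with 1 left out. Of all genes 0.00569%, 2.38%, 13%, 17.9% and 0% to 10.7% were called there. KO against WT with cytokines gave 2, and 15 by limma, 9 without both and 0 to 6 with 1 left out. Here 5.34%, 23.1%, 11.6% and 1.32% to 9.83% of all genes were called. Limma gave 1 for Het against WT with cytokines, where it called 0.671% of all genes. Leaving out both libraries gave 2 in the KO to Het interaction, with 55 calls over all genes. The main fit gave 0 in both.

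Over all genes, untreated KO against Het gave 1 call, 2279 by limma and 3169 without both libraries. Untreated KO against WT gave 535 (417 to 1756 over settings), and with cytokines 939 (471 to 4058). Cytokines gave 4530 in WT (limma 6814) and 4330 in Het islets (2478 with only the groups compared).

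Replicate numbers were not taken as pairing, since the labels do not say what a number marks. Deviations of same-numbered untreated and treated libraries correlated at 0.14, 0.06 and 0.21 in WT islets. In Het islets they correlated at 0.13, 0.38 and -0.22, and in KO islets at 0.05, 0.19 and 0.39. Libraries of the same genotype with different numbers correlated at -0.44 to 0.36. These values lean toward a shared origin of same-numbered libraries and do not settle it. With the replicate block 10, 8 and 8 members were called with cytokines, Il1a in KO islets among them (1.65, edgeR adjusted p = 0.014), and 0 between genotypes. The block ended the calls of Il15ra in Het (edgeR adjusted p = 0.0558) and KO islets (0.0589), and the block by the authors' number that of Kitl in Het islets (0.0514). Depth limits Csf2, Il15 and untreated Il1f6, where a library had at most 17 reads of Il15.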

Other observations

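Calls in the other marker lists stand here beside the shares of all genes tested. With cytokines these were 12.6%, 12.8% and 15.4% higher and 13.1%, 11.8% and 16.1% lower in WT, Het and KO islets. Between KO and WT islets they were 3.04% untreated and 5.34% with cytokines, in either direction. Duct markers were called higher with cytokines for 1 of 6 in WT, 0 in Het and 1 in KO islets, and 2 of 6 were lower in KO than in WT islets in each treatment. NK cell and ILC markers summed to 0 to 1.74 CPM, with the highest value in untreated KO replicate 3, where the defining gene Ncr1 had 10 reads against 0 to 3 in the other libraries. Stellate and fibroblast markers were lower with cytokines for 1 of 8 in WT, 5 in Het and 1 in KO islets. Alpha cell markers were lower with cytokines for 2 of 5 in each genotype. Beta cell markers were lower for 4 of 8 in each genotype, and 1 was higher in KO islets.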
